A study of Mus musculus with 12 samples.

Results

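Collagen chain genes were examined in mouse hearts 5 days after doxorubicin (DOX), an anthracycline anticancer drug that damages the heart. A gene was included when a probe set of the array carried its symbol alone and the symbol had the form of a collagen alpha chain, Col followed by a type number, the letter a and a chain number. This gave 42 of the 18193 genes on the array, read by 82 of its 45037 probe sets. Of the 42 chains, 11 were fibrillar, 8 belonged to basement membranes and 23 to other classes. For 27 genes several probe sets existed, and the brightest by its mean over the 12 arrays stands for the gene unless another is named.

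RNA from whole hearts of male C57BL/6J mice was measured on 12 Affymetrix arrays, 3 in each of 4 groups. They were knockout-labelled DOX hearts (labelled CHIP knockout, 1 injection of DOX), WT DOX hearts (wild type, the same injection), knockout-labelled hearts with no treatment and WT hearts with no treatment. The labels give an age of 8 to 10 weeks for all mice and a DOX dose of 15 mg/kg. The methods of the study instead describe mice with a cardiac-specific CHIP transgene, another dose, another age range and saline injections for the mice without DOX. Stub1, which codes for CHIP, a cochaperone with ubiquitin ligase activity, went against the knockout label on the brighter of its 2 probe sets. Its intensity was 5561, 7998 and 8723 on the knockout-labelled DOX arrays and 1944, 1949.9 and 1930.1 on the WT DOX arrays, and 8762, 9817 and 9655 against 1857, 1831 and 1790.3 on the corresponding arrays without DOX. All 6 knockout-labelled arrays thus lay above all 6 WT arrays, and the other Stub1 probe set overlapped between the genotypes. The name "knockout-labelled" is kept throughout for this reason, and every direction given between the genotypes is that of the label as deposited. The sources used here do not say whether an array held RNA from 1 heart, so the p-values measure the spread between arrays.

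Collagens are triple helices of 3 alpha chains. Fibrillar chains (types I, III and V in the heart) form the load-bearing fibres of the interstitium and are made chiefly by fibroblasts. Type IV chains form the sheet-like network of basement membranes around cardiomyocytes and vessels, with types XV and XVIII attached to it, and type VI chains form beaded filaments between basement membrane and interstitial fibres. Chains are hydroxylated, glycosylated and folded in the endoplasmic reticulum, trimmed by proteinases after secretion and then cross-linked by lysyl oxidases.

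Values are linear intensities as deposited, which compare arrays within a probe set but not 1 gene with another. Log2 fold changes are differences of log2(intensity + 32), which understate the change of dim probe sets. Each comparison was a two-sided contrast of a limma model with 4 group means, and a gene was called when its p, corrected across the 45037 probe sets (Benjamini-Hochberg), was under 0.05. Array medians lay between 28.9 and 30.4, and correlations of arrays within a group between 0.988 and 0.997. Of the 42 chains, 16 had a mean over the 12 arrays of at least 100, and 26 were dimmer, with means from 4.41 to 77.3. The table has no detection calls, so a dim chain is not shown to be expressed. The mean of 100 is reached by some chains through the brighter groups alone (Col1a1, for instance, averaged 42.3 in WT DOX hearts), and the 16 brighter chains are therefore described one by one and not used as a test.

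After DOX the called collagen chains were all lower, and they were in large part the same chains in both genotypes. In knockout-labelled hearts 7 of the 42 chains fell (Col1a1, Col5a1, Col4a2, Col15a1, Col6a1, Col6a2 and Col6a3) and 0 rose, where 1.47% of all probe sets, and 2.18% of the brightest probe sets of all genes, were called lower. In WT hearts 5 of the 42 fell (Col5a1, Col15a1, Col6a1, Col6a2 and Col6a3) and 0 rose, where 1.40% of all probe sets, and 2.23% of the brightest probe sets of all genes, were called lower. All 5 chains called in WT hearts were called in knockout-labelled hearts. The 2 comparisons use separate arrays but 1 estimate of the spread over all 12, and a fit to the 6 knockout-labelled arrays alone called 0 of the 7 chains, while one to the 6 WT arrays alone called 3 of the 5. Over the 42 chains the median log2 fold change was -0.04 in knockout-labelled and -0.05 in WT hearts, against 0.01 and -0.01 over all probe sets, since the dim chains lay near 0. In 16 of the 42 chains all 3 knockout-labelled DOX arrays lay below the untreated ones (9.59% of all probe sets), and in 14 of 42 all 3 WT DOX arrays did (12.8% of all probe sets). The count of 5 in WT hearts fell to 0 without WT DOX replicate 2 and to 0 without WT no treatment replicate 3, was 1 without WT DOX replicate 1 or WT no treatment replicate 2 and 2 without WT no treatment replicate 1. The count of 7 was 3 without any of knockout-labelled DOX replicates 1 and 3 and knockout-labelled no treatment replicates 1 and 3. The calls of Col15a1, Col5a1 and Col6a2 in knockout-labelled hearts held without each array in turn.

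When the DOX response was averaged over the genotypes, 9 chains fell and 0 rose, with 4.59% of all probe sets and 7.08% of the brightest per gene called lower. Col1a2, Col3a1 and Col14a1 joined Col1a1, Col5a1, Col15a1, Col6a1, Col6a2 and Col6a3 there, and Col4a2 was not called. This count stayed between 8 and 12 without each of the 12 arrays in turn.

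Between the genotypes, the called chains were all higher in knockout-labelled hearts, the label that the Stub1 level goes against. After DOX 0 of the 42 chains were called, with 0.291% of all probe sets and 0.462% of the brightest per gene called higher, while at an unadjusted p under 0.05 limma gave 11 chains higher and 0 lower (15.5% of all probe sets passed in either direction). Without DOX 4 chains were higher (Col1a1, Col4a2, Col15a1 and Col6a2) and 0 lower, where 0.924% of all probe sets and 1.35% of the brightest per gene were called higher. Averaged over the treatments 11 chains were higher (Col1a1, Col1a2, Col5a1, Col5a2, Col4a2, Col15a1, Col6a1, Col6a2, Col6a3, Col8a1 and Col14a1) and 0 lower, with 2.24% of all probe sets and 3.12% of the brightest per gene called higher. All 3 knockout-labelled arrays lay above the WT arrays for 9 of the 42 chains after DOX (11.2% of all probe sets) and for 20 of 42 without DOX (8.70% of all probe sets). The averaged count of 11 was 5 without WT DOX replicate 1 or 2, 6 without WT no treatment replicate 2 or knockout-labelled no treatment replicate 1 and 7 without knockout-labelled DOX replicate 2 or 3. The count of 4 without DOX was 0 without WT no treatment replicate 2, 1 without WT no treatment replicate 1 or 3 and 2 without knockout-labelled no treatment replicate 1 or 3. The interaction of genotype and DOX, which tests whether the DOX responses of the genotypes differ, gave 0 calls among the chains and 0 among all probe sets (0.00%), with unadjusted p-values under 0.05 for 4 chains, 1 of them positive and 3 negative (8.69% of all probe sets).

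Some of the chains described here (Col1a1, Col1a2, Col3a1, Col5a1 and Col5a2) were also among genes that the study listed from these same arrays, so their direction is no independent evidence. In whole-heart RNA, fewer cells of a type and less RNA per cell cannot be told apart. Of 10 fibroblast markers, all with means of at least 100, 2 fell with DOX in knockout-labelled hearts (Lum and Pcolce) and 3 in WT hearts (Lum, Dpt and Pcolce), with median log2 fold changes of -0.32 and -0.22. When the DOX response was averaged over the genotypes, 4 of the 10 fell (Lum, Dpt, Ddr2 and Pcolce) and 0 rose. The median log2 fold change was then -0.29, and 8 of the 10 had lower means. Between the genotypes, 1 of the 10 was higher in knockout-labelled hearts after DOX (Lum), 0 were called without DOX and 3 were higher when averaged (Lum, Mfap5 and Pcolce), with median log2 fold changes of 0.22, 0.27 and 0.23. Of genes with a mean of at least 100, 4.07% were called lower with DOX in knockout-labelled hearts, 3.78% in WT hearts and 11.9% when averaged. Called higher in knockout-labelled hearts were 0.898% of these genes after DOX, 2.73% without DOX and 5.75% when averaged. The summed intensity of the fibroblast markers ranged from 18230 to 20250 in knockout-labelled DOX and 15780 to 18000 in WT DOX hearts. Without DOX it was 19380 to 26890 in knockout-labelled and 17140 to 20090 in WT hearts. Such sums weight each marker by its intensity, so the brightest probe sets count most. Dcn, the proteoglycan decorin and a defining fibroblast gene, had log2 fold changes with DOX of -0.03 in knockout-labelled (adjusted p = 0.963, limma) and 0.08 in WT hearts (adjusted p = 0.853, limma). Pdgfra, a receptor that marks cardiac fibroblasts, had log2 fold changes of -0.22 in knockout-labelled (adjusted p = 0.347, limma) and -0.10 in WT hearts (adjusted p = 0.671, limma). The part of fibroblast numbers in the collagen values was not tested. The 10 cartilage and valve markers and the 6 epicardial markers all had means under 100. Summed macrophage markers ranged from 4935 to 5972 in knockout-labelled DOX, 3363 to 4428 in WT DOX, 5214 to 10570 in knockout-labelled no treatment and 5596 to 7222 in WT no treatment hearts. With DOX, Csf1r and Cd68, the latter with a mean under 100, were called lower in WT hearts. In knockout-labelled hearts 0 of the 10 macrophage markers were called, and 5 of 10 fell when averaged. In each genotype 9 of the 10 had lower means with DOX. The median log2 fold changes were -0.40 in knockout-labelled and -0.69 in WT hearts, and the interaction gave 0 calls among these markers. Of 10 endothelial markers 0 were called in the single comparisons. Kdr and Tek fell with DOX when averaged over the genotypes, 2 of 10 beside the 11.9% of genes given above.

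Among the fibrillar chains, those of types I, III and V had lower means after DOX in both genotypes, and Col3a1 had the lowest DOX log2 fold change of all 42 chains in each genotype. Col3a1 encodes the only chain of type III collagen, which forms fine fibres together with type I. Its intensity was 375, 1753 and 693 in knockout-labelled DOX hearts, 203, 223 and 479.7 in WT DOX hearts, 3724, 2889 and 4878 in knockout-labelled no treatment hearts and 975, 1155 and 2029 in WT no treatment hearts. Every DOX array lay below every untreated array of its genotype, and 1 array, knockout-labelled DOX replicate 2, stood well above the other 2 of its group. The log2 fold change with DOX was -2.23 in knockout-labelled hearts (standard error 0.52, adjusted p = 0.0604, limma) and -2.11 in WT hearts (standard error 0.52, adjusted p = 0.0601, limma), neither of which was called. Averaged over the genotypes it was -2.17 (standard error 0.37, adjusted p = 0.00838, limma), and this call held without each array in turn (adjusted p up to 0.0249). The genotype difference of Col3a1 averaged 1.43 (standard error 0.37, adjusted p = 0.0557, limma) and did not pass on this probe set, while a further Col3a1 probe set was called in this average. A dimmer Col3a1 probe set, with a mean of 57.5, was called lower with DOX in knockout-labelled hearts (log2 fold change -1.50, adjusted p = 0.022, limma) and higher in knockout-labelled hearts without DOX (1.35, adjusted p = 0.033, limma).

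Type I collagen, the main fibre of the heart, is built from the chains of Col1a1 and Col1a2. Col1a1 read 51.1, 111 and 60.8 in knockout-labelled DOX and 33.9, 38.9 and 54.3 in WT DOX hearts, against 236, 149 and 271 in knockout-labelled no treatment and 82.6, 62.4 and 96.6 in WT no treatment hearts. The knockout-labelled hearts without DOX thus stood above the other 9 arrays, and Col1a1 fell with DOX in knockout-labelled hearts by 1.25 on the log2 scale (standard error 0.24, adjusted p = 0.0329, limma). Its WT response of -0.60 (adjusted p = 0.211) was not called, and the difference between the 2 responses was -0.65 (standard error 0.34, adjusted p = 0.621, limma). Without DOX, Col1a1 was 2.72-fold higher in mean intensity in knockout-labelled than in WT hearts (adjusted p = 0.048, limma). This call held without knockout-labelled DOX replicate 2 or knockout-labelled no treatment replicate 2. It was lost without each of the other arrays (adjusted p up to 0.17). Col1a2 read 619, 1166 and 779.6 in knockout-labelled DOX hearts, 449, 465 and 607 in WT DOX hearts, 1753, 1319.8 and 1944 in knockout-labelled no treatment hearts and 945, 619 and 924 in WT no treatment hearts. The groups did not overlap within any of the 4 comparisons, but Col1a2 was called only when averaged. The DOX response was -0.82 (standard error 0.17, adjusted p = 0.0197, limma, and 0.0539 without WT no treatment replicate 3). The genotype difference was 0.84 (standard error 0.17, adjusted p = 0.0247, limma). That genotype call held in 7 of 12 fits with 1 array left out (adjusted p up to 0.0584).

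The 250 bases before the annotated start of Col1a2 (RefSeq, GRCm38.p6, chr6:4505368-4505617, plus strand) are shown because the groups of this chain did not overlap in any of the 4 comparisons and its window holds motifs of those searched. The capitals mark GGGCGG (the GC box, bound by Sp1-type factors) and CCAAT (bound by NF-Y).
Col1a2: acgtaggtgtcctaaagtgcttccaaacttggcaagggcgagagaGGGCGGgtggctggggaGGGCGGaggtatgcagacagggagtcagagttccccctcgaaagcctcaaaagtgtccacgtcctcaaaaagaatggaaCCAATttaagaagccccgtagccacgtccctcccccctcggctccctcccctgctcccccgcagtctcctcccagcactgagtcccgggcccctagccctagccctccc
RefSeq windows were matched for 33 of the 42 genes (36 windows, 13 of the 16 brighter chains). Both strands were searched for 4 motifs, none of which contains another. GGGCGG was found in 58.3% of the collagen windows and 32.7% of the 32851 windows of all genes, CCAAT in 36.1% and 33.8%, TATAAA (the TATA box) in 13.9% and 12.4%, and TGANTCA (the AP-1 site) in 2.78% and 6.75%. These are matches of letters and not shown to be binding sites.

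Type V collagen sits in the core of type I fibres and sets their diameter. Col5a1 read 139, 228 and 183 in knockout-labelled DOX hearts, 113, 113 and 133 in WT DOX hearts, 425, 374 and 505 in knockout-labelled no treatment hearts and 274, 218 and 272 in WT no treatment hearts, with no overlap in any of the 4 comparisons. It was the only fibrillar chain called in both genotypes, and it fell by 1.13 on the log2 scale in knockout-labelled hearts (standard error 0.15, adjusted p = 0.0116, limma) and by 0.91 in WT hearts (standard error 0.15, adjusted p = 0.0222, limma). Col5a2 read 179, 355 and 170.3 in knockout-labelled DOX hearts, 138, 118 and 142 in WT DOX hearts, 452, 342 and 642 in knockout-labelled no treatment hearts and 205, 152 and 288 in WT no treatment hearts. Knockout-labelled DOX replicate 2 again stood above its group and above 1 untreated array, and Col5a2 passed in 1 comparison, the averaged genotype difference of 0.84 (standard error 0.21, adjusted p = 0.0486, limma). This call held without WT no treatment replicate 3 or knockout-labelled no treatment replicate 2 and was lost without each of the other arrays (adjusted p up to 0.108). Col3a1 and Col5a2 are direct neighbours on chromosome 1 in the RefSeq gene table. Col27a1, a fibrillar chain known mainly from cartilage, differed from the other brighter fibrillar chains with DOX in knockout-labelled hearts, where its log2 fold change was 0.07. In WT hearts it was -0.19, and every DOX array lay below every untreated one, as for the other brighter fibrillar chains. Col27a1 had no call in any comparison.

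**Figure D1:**
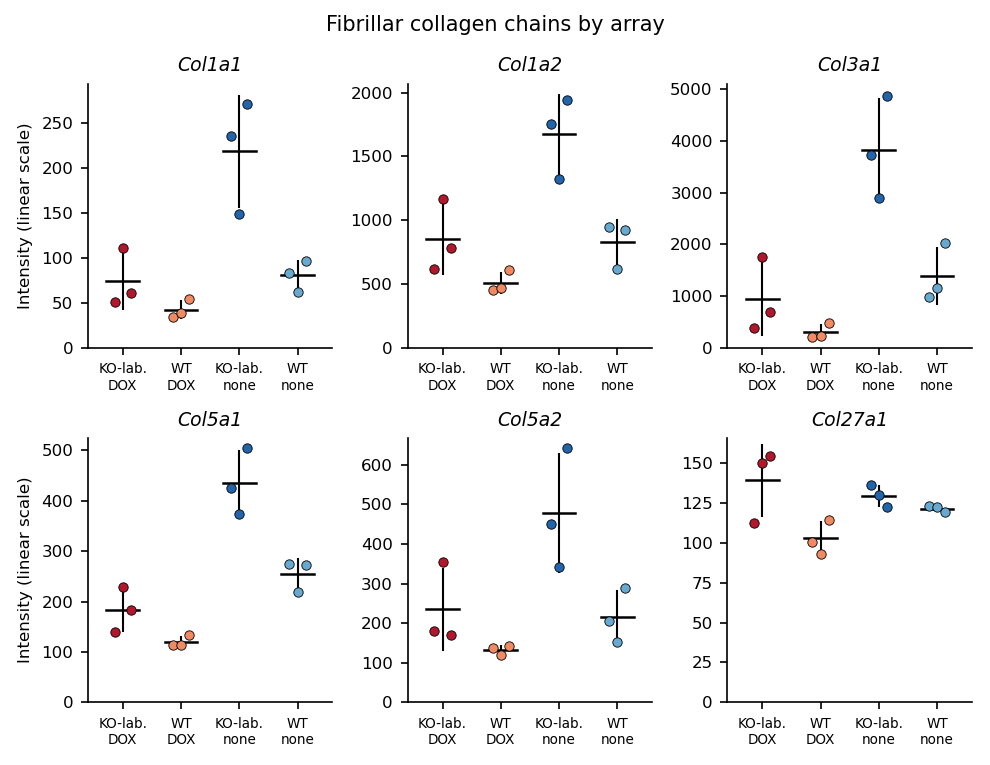
Linear intensity (y axis) of the 6 brighter fibrillar chains on each array, in knockout-labelled DOX, WT DOX, knockout-labelled no treatment and WT no treatment hearts (x axis, KO-lab. = knockout-labelled, none = no treatment). Each dot is an array, with the group mean as a horizontal line and the SD as a vertical bar (n = 3), and Col3a1 averaged 940.4 and 302 in the DOX groups and 3830.3 and 1386 in the untreated groups, whereas Col27a1 stayed between 93.2 and 154 on all arrays.

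The basement membrane chains fell into chains with the same direction as the fibrillar class and chains with another pattern. Col15a1 encodes a collagen with heparan and chondroitin sulphate chains that links basement membranes to the interstitium in muscle and capillaries. It read 118, 162 and 159 in knockout-labelled DOX hearts, 60.1, 66.0 and 78.2 in WT DOX hearts, 564, 359.8 and 355 in knockout-labelled no treatment hearts and 225, 177 and 214 in WT no treatment hearts. The groups did not overlap in any of the 4 comparisons. Col15a1 had log2 fold changes with DOX of -1.34 in knockout-labelled hearts (standard error 0.17, adjusted p = 0.00911, limma) and -1.24 in WT hearts (standard error 0.17, adjusted p = 0.0134, limma), and fell in both. It was 2.15-fold higher in mean intensity in knockout-labelled than WT hearts after DOX, which did not pass (adjusted p = 0.057), and 2.08-fold higher without DOX, which did (adjusted p = 0.0306, limma). The interaction was -0.10 (standard error 0.24, adjusted p = 0.934, limma).

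The 250 bases before the annotated start of Col15a1 (RefSeq, GRCm38.p6, chr4:47207762-47208011, plus strand) are shown beside those of Col1a2 as a window that holds none of the 4 motifs.
Col15a1: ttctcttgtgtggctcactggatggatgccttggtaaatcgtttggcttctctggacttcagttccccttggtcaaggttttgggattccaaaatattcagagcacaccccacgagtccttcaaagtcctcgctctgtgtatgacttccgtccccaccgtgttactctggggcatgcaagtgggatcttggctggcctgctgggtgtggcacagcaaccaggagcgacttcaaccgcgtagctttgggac
It is all in lower case for this reason, and that these letters are absent from the window says nothing about the factors that bind them.

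Col4a1 and Col4a2, whose products assemble with each other into the common type IV network, differed from the fibrillar chains in WT hearts, where their means after DOX were above those without it. Col4a1 read 1319, 1171 and 1131 in knockout-labelled DOX hearts, 1277, 1426 and 1171 in WT DOX hearts, 1784, 1504 and 2342 in knockout-labelled no treatment hearts and 1115, 857 and 1252 in WT no treatment hearts. Col4a2 read 1269, 1160.1 and 1063 in knockout-labelled DOX hearts, 1163, 1139.7 and 1142 in WT DOX hearts, 1666, 1485 and 1893 in knockout-labelled no treatment hearts and 1065, 852 and 1100.0 in WT no treatment hearts. For both genes the untreated knockout-labelled hearts were the high group, above all 9 other arrays, and the other 3 groups lay close together. Col4a2 fell with DOX in knockout-labelled hearts by 0.52 on the log2 scale (standard error 0.11, adjusted p = 0.0437, limma) and had a log2 fold change of 0.19 in WT hearts (standard error 0.11, adjusted p = 0.385, limma). The call in knockout-labelled hearts was kept without WT no treatment replicate 2 or knockout-labelled no treatment replicate 2. It was lost without each of the other arrays (adjusted p up to 0.116). Without DOX it was 1.67-fold higher in mean intensity in knockout-labelled than WT hearts (adjusted p = 0.0163, limma), and after DOX the ratio was 1.01. The corresponding log2 fold changes of Col4a1 were -0.60 (adjusted p = 0.103), 0.27 (adjusted p = 0.45), 0.78 without DOX (adjusted p = 0.0526) and -0.09 after DOX (adjusted p = 0.848), none of them called. The difference between the DOX responses was -0.71 for Col4a2 (standard error 0.15, adjusted p = 0.337, limma) and -0.87 for Col4a1 (standard error 0.24, adjusted p = 0.456, limma), so that a different response of the genotypes did not pass the test over all probe sets. A second Col4a1 probe set, with a mean of 633, was called higher without DOX (0.64, adjusted p = 0.045, limma).

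The 2 genes are transcribed in opposite directions on chromosome 8, and by their annotated starts the transcripts overlap at their first bases. The stretch that spans the starts, which lies inside both transcripts, is shown because the genes share it and had like values here. In RefSeq (GRCm38.p6) the start of Col4a2 on the plus strand is base 11312805 and that of Col4a1 on the minus strand is base 11312826, which lie 21 bases apart.
Col4a2 to Col4a1: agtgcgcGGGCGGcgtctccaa
This stretch covers chr8:11312805-11312826 on the plus strand, and the capitals mark a GGGCGG match. In the 250 bases before each start, both genes had a CCAAT match and Col4a2 had GGGCGG matches as well.

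Acta2, smooth muscle actin, was highest in the untreated knockout-labelled hearts, as were the type IV chains and also Col1a1, Col3a1, Col15a1 and Col6a2, among others. It read 9168, 6289 and 13040 in the untreated knockout-labelled hearts and between 943 and 3091 on the other 9 arrays. The sum over 10 smooth muscle and pericyte markers was 15700 to 17070 in knockout-labelled DOX, 15750 to 16080 in WT DOX, 21140 to 25110 in knockout-labelled no treatment and 15230 to 16980 in WT no treatment hearts. Without Acta2 the sum of the other 9 was 12759 to 14184 in knockout-labelled DOX, 14577 to 14808 in WT DOX, 12071 to 14935 in knockout-labelled no treatment and 13950 to 15044 in WT no treatment hearts, and the untreated knockout-labelled hearts then overlapped each of the other groups. Acta2 passed both with DOX in knockout-labelled hearts (-1.91, adjusted p = 0.0251, limma) and between the genotypes without DOX (2.41, adjusted p = 0.0139, limma). Over the list, 2 of 10 markers fell with DOX in knockout-labelled hearts and 0 in WT hearts, and 1 of 10 was higher in knockout-labelled hearts without DOX. The shares of genes with a mean of at least 100 were 4.07%, 3.78% and 2.73% in the same order. The part of smooth muscle cells and pericytes in the collagen values was not tested.

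Col4a5, a chain of the type IV network restricted to some basement membranes, read 202, 242 and 245 in knockout-labelled DOX, 189, 279 and 253 in WT DOX, 289, 342 and 318 in knockout-labelled no treatment and 243, 225 and 226 in WT no treatment hearts. The untreated knockout-labelled hearts were again the high group, but no comparison was called, with -0.42 for DOX in knockout-labelled hearts (adjusted p = 0.106, limma) and 0.03 in WT hearts (adjusted p = 0.926, limma). Col18a1, the precursor of endostatin, had log2 fold changes with DOX of -0.32 in knockout-labelled and -0.16 in WT hearts, and no call. Col4a3, Col4a4 and Col4a6 were dim, with means of 36.0, 57.2 and 20.3, and were not called.

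**Figure D2:**
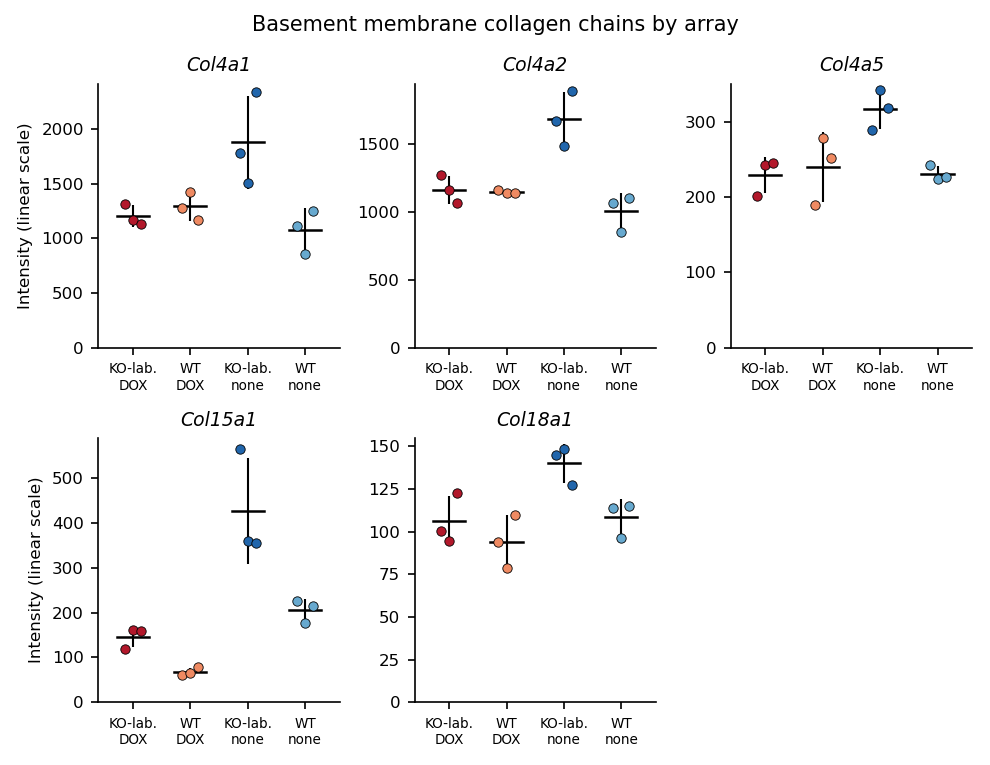
Linear intensity (y axis) of the 5 brighter basement membrane chains on each array in the 4 groups (x axis, KO-lab. = knockout-labelled, none = no treatment). Each dot is an array, with the group mean as a horizontal line and the SD as a vertical bar (n = 3), and Col4a2 averaged 1164, 1148 and 1006 in knockout-labelled DOX, WT DOX and WT no treatment hearts and 1682 in knockout-labelled no treatment hearts, while Col15a1 was lower in both DOX groups (146 and 68.1) than in the untreated groups (426 and 205).

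Among the other classes, the 3 chains of the standard type VI heterotrimer fell together in both genotypes. Col6a1 read 315, 505 and 436 in knockout-labelled DOX hearts, 203, 261 and 318 in WT DOX hearts, 1058, 795 and 935 in knockout-labelled no treatment hearts and 609, 458 and 609.6 in WT no treatment hearts. Col6a2 read 354, 561 and 477 in knockout-labelled DOX hearts, 227, 266 and 351 in WT DOX hearts, 1514, 1176 and 1518 in knockout-labelled no treatment hearts and 669.9, 569.8 and 704 in WT no treatment hearts. Col6a3, the largest of the 3 chains, read 162, 272 and 238 in knockout-labelled DOX hearts, 86.9, 46.4 and 134 in WT DOX hearts, 665, 545 and 727 in knockout-labelled no treatment hearts and 249, 216 and 316 in WT no treatment hearts. For each of these genes every DOX array lay below every untreated array of its genotype. The log2 fold changes were -1.11 in knockout-labelled and -1.02 in WT hearts for Col6a1 (adjusted p = 0.0247 and 0.0293, limma), -1.54 and -1.13 for Col6a2 (adjusted p = 0.00766 and 0.0203, limma) and -1.42 and -1.32 for Col6a3 (adjusted p = 0.0297 and 0.0326, limma), with standard errors from 0.18 to 0.26. For Col6a1, Col6a2 and Col6a3, the knockout-labelled calls held in 8, 12 and 7 of 12 fits with 1 array left out. The WT calls held in 7, 8 and 7 of 12 (adjusted p up to 0.11, 0.0834 and 0.123, limma). In mean intensity Col6a3 was 2.88-fold lower after DOX in knockout-labelled and 2.92-fold lower in WT hearts.

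Between the genotypes, Col6a2 was higher in knockout-labelled hearts without DOX (log2 fold change 1.07, standard error 0.18, adjusted p = 0.0237, limma), and Col6a1 and Col6a3 had log2 fold changes of 0.71 and 1.22 there (adjusted p = 0.114 and 0.0527). After DOX the 3 values were 0.62, 0.66 and 1.12 for Col6a1, Col6a2 and Col6a3 (adjusted p = 0.167, 0.128 and 0.0821), and all 3 passed when averaged over the treatments (0.66, 0.87 and 1.17, adjusted p = 0.0252, 0.00716 and 0.0089, limma). The averaged calls held in 6, 12 and 12 of 12 fits with 1 array left out (for Col6a1 adjusted p up to 0.0636, limma). The Col6a2 call without DOX held in 7 of 12 (adjusted p up to 0.103, limma). A second Col6a2 probe set, of a kind that Affymetrix marks as open to cross-hybridization, had DOX responses of -1.39 in knockout-labelled and -1.09 in WT hearts and a genotype difference without DOX of 0.95, all called (adjusted p = 0.0079, 0.018 and 0.029, limma). Col6a4 and Col6a5, alternative type VI chains, were dim, with means of 17.2 and 5.36.

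Col8a1, a short chain that forms networks in vessel walls, read 233, 445 and 302 in knockout-labelled DOX hearts, 163, 103 and 261 in WT DOX hearts, 534, 424 and 699 in knockout-labelled no treatment hearts and 283, 249 and 306 in WT no treatment hearts. DOX and untreated arrays overlapped in both genotypes, and Col8a1 passed only in the averaged genotype difference (0.85, standard error 0.21, adjusted p = 0.0462, limma). This call held without knockout-labelled no treatment replicate 2, WT DOX replicate 3 or knockout-labelled DOX replicate 1 and was lost without each of the other arrays (adjusted p up to 0.106). Col14a1, a collagen on the surface of fibrils that regulates their growth, read 70.2, 119 and 103 in knockout-labelled DOX hearts, 46.5, 36.8 and 56.0 in WT DOX hearts, 184, 146 and 196 in knockout-labelled no treatment hearts and 109, 67.7 and 118 in WT no treatment hearts. The DOX arrays lay below the untreated arrays in each genotype, and Col14a1 passed in both averages, with -0.70 for DOX (standard error 0.13, adjusted p = 0.0122, limma) and 0.70 for the genotype (standard error 0.13, adjusted p = 0.0169, limma). Col12a1, its relative on the fibril surface, was dim, with intensities from 27.0 to 32.5 on all arrays and log2 fold changes of 0.00 with DOX in either genotype.

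**Figure D3:**
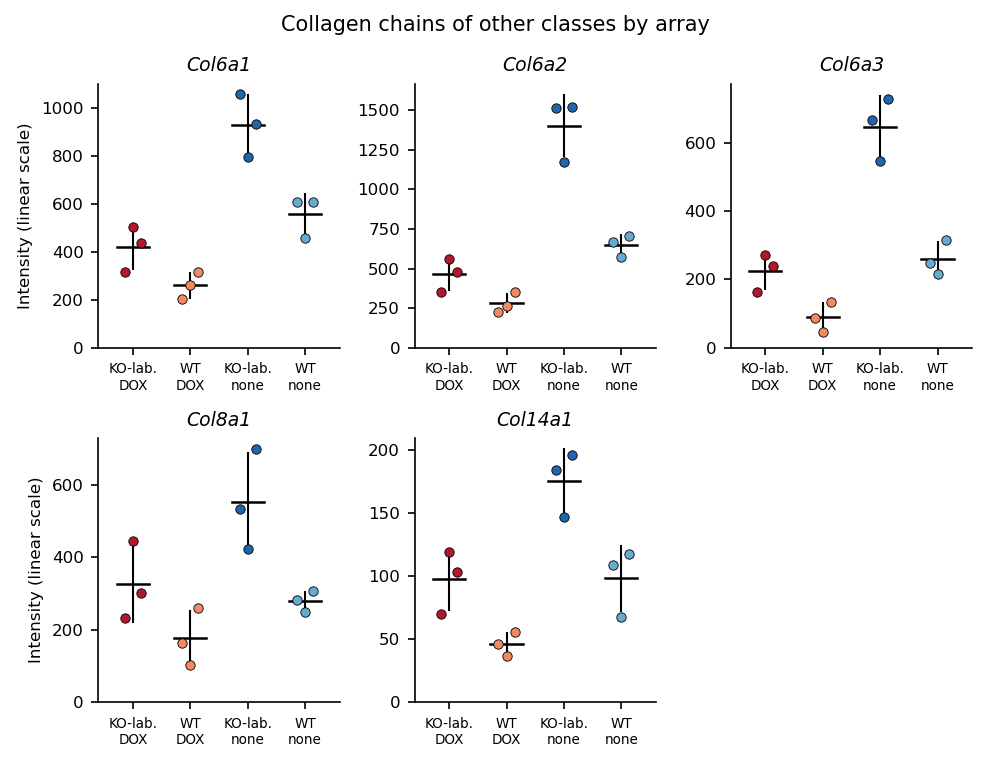
Linear intensity (y axis) of the 5 brighter chains of other classes on each array in the 4 groups (x axis, KO-lab. = knockout-labelled, none = no treatment). Each dot is an array, with the group mean as a horizontal line and the SD as a vertical bar (n = 3), and the type VI chains Col6a1, Col6a2 and Col6a3 averaged 419, 464 and 224 in knockout-labelled DOX, 261, 281 and 89.1 in WT DOX, 929, 1403 and 646 in knockout-labelled no treatment and 559, 648 and 260.4 in WT no treatment hearts.

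Across the 16 brighter chains the arrays of a group kept a similar order, so the chains are not independent of each other. Knockout-labelled DOX replicate 1 was the lowest of its group for 12 of the 16 chains and replicate 2 the highest for 11. WT DOX replicate 3 was the highest of its group for 13, knockout-labelled no treatment replicate 2 the lowest for 12 and WT no treatment replicate 2 the lowest for 14. Knockout-labelled DOX replicate 1 was also the lowest of the 6 knockout-labelled arrays for Stub1 (5561). Knockout-labelled no treatment replicate 2, likewise lowest of its group for most chains, was instead the highest of the 6 for Stub1 (9817). A relation of the chains to Stub1 was not tested.

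**Figure D4:**
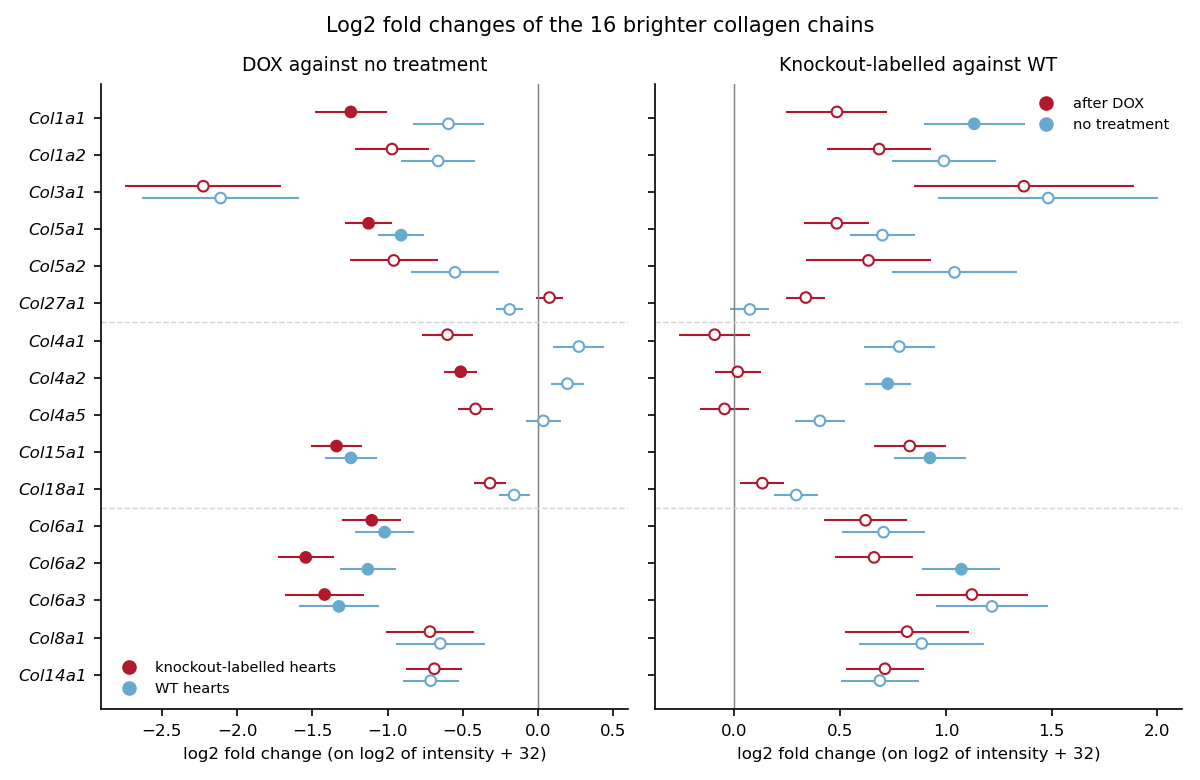
Log2 fold changes (x axis) with standard errors of the 16 brighter collagen chains (rows, grouped as fibrillar, basement membrane and other chains), for DOX against no treatment on the left and knockout-labelled against WT on the right. Filled points passed an adjusted p under 0.05 and open points did not, and Col3a1 lay farthest from 0 with the widest errors (-2.23 and -2.11 with DOX), and Col4a1, Col4a2 and Col4a5 lay at or above 0 with DOX in WT hearts (0.27, 0.19 and 0.03) and below 0 in knockout-labelled hearts (-0.60, -0.52 and -0.42).

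Of 19 collagen modifying enzymes and chaperones, 18 were on the array, and the log2 fold changes of those called with DOX were closer to 0 than those of the called chains. This does not hold for uncalled genes of the list. The lowest log2 fold change with DOX in knockout-labelled hearts was -0.93, in a gene not called, below that of the called chain Col4a2 (-0.52). Ppib, cyclophilin B, which isomerizes prolines during folding of the helix, was the only 1 of the 18 that fell in both genotypes. It read 1196, 1267 and 1326 in knockout-labelled DOX hearts, 1184, 1249 and 1237 in WT DOX hearts, 1633, 1731 and 1838 in knockout-labelled no treatment hearts and 1456, 1390.4 and 1450.0 in WT no treatment hearts. Its log2 fold change was -0.45 in knockout-labelled hearts (adjusted p = 0.0069, limma) and -0.22 in WT hearts (adjusted p = 0.045, limma), and it was higher in knockout-labelled hearts without DOX (0.27, adjusted p = 0.03, limma). Plod1, a lysyl hydroxylase, fell in knockout-labelled hearts (-0.42, adjusted p = 0.018, limma), and Crtap, a partner of P3h1 in prolyl hydroxylation, fell in WT hearts (-0.43, adjusted p = 0.046, limma). Averaged over the genotypes, Plod1, P3h1, P3h3, Crtap and Ppib fell and Mia3, which loads bulky procollagen for export, rose (0.30, adjusted p = 0.031, limma). These were 5 of 18 called lower and 1 called higher, beside 7.08% and 5.32% of the brightest probe sets of all genes. Averaged over the treatments, Crtap, Ppib and Serpinh1, the collagen chaperone Hsp47, were higher in knockout-labelled hearts (0.27, 0.16 and 0.74, adjusted p = 0.048, 0.033 and 0.042, limma), and P3h4 was lower (-0.50, adjusted p = 0.036, limma). That is 3 of 18 called higher and 1 called lower, beside 3.12% and 4.46% of the brightest probe sets of all genes. The median log2 fold change of the 18 genes was -0.16 with DOX in knockout-labelled and -0.01 in WT hearts.

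Of 13 genes of procollagen processing and crosslinking, 10 were on the array, and Pcolce, which enhances the removal of the procollagen C-propeptide, was called in both genotypes. It read 454, 538 and 472 in knockout-labelled DOX hearts, 268, 246 and 314 in WT DOX hearts, 972, 761 and 1505 in knockout-labelled no treatment hearts and 638, 509.7 and 642.5 in WT no treatment hearts. The fall was 1.04 on the log2 scale in knockout-labelled (adjusted p = 0.036, limma) and 1.03 in WT hearts (adjusted p = 0.033, limma), and the averaged genotype difference was 0.77 (adjusted p = 0.018, limma). Pcolce is also 1 of the 10 fibroblast markers. Averaged over the genotypes, Pcolce2 and Loxl1, a lysyl oxidase of elastic fibres, also fell (-0.33 and -0.96, adjusted p = 0.037 and 0.021, limma). With Pcolce, 3 of the 10 were called lower there, beside 7.08% of the brightest probe sets of all genes. Lox, the main collagen cross-linking oxidase, had a DOX response of opposite sign that did not pass, 0.69 in knockout-labelled (adjusted p = 0.435, limma) and 1.18 in WT hearts (adjusted p = 0.131, limma).

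Of 10 collagen receptors and uptake genes, 9 were on the array. Ddr1, a receptor tyrosine kinase that binds collagen, read 228, 219 and 199 in knockout-labelled DOX hearts, 229.5, 216 and 223 in WT DOX hearts, 266, 274 and 289 in knockout-labelled no treatment hearts and 215, 206 and 203 in WT no treatment hearts. The untreated knockout-labelled hearts were the high group, as for Col4a2 and many other brighter chains. Ddr1 fell with DOX in knockout-labelled hearts (-0.32, adjusted p = 0.015, limma) and was higher there than in WT without DOX (0.36, adjusted p = 0.012, limma). The difference between the responses of -0.41 did not pass (adjusted p = 0.23, limma). Itga1, the alpha subunit of a collagen-binding integrin that prefers type IV, fell in knockout-labelled hearts (-0.63, adjusted p = 0.032, limma) and had -0.28 in WT hearts (adjusted p = 0.235, limma). Averaged over the genotypes, Itga1, Ddr2 and the dim Lair1 fell (-0.46, -0.42 and -0.27, adjusted p = 0.012, 0.017 and 0.04, limma). This was 3 of 9, beside 7.08% of the brightest probe sets of all genes called lower.

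**Figure D5:**
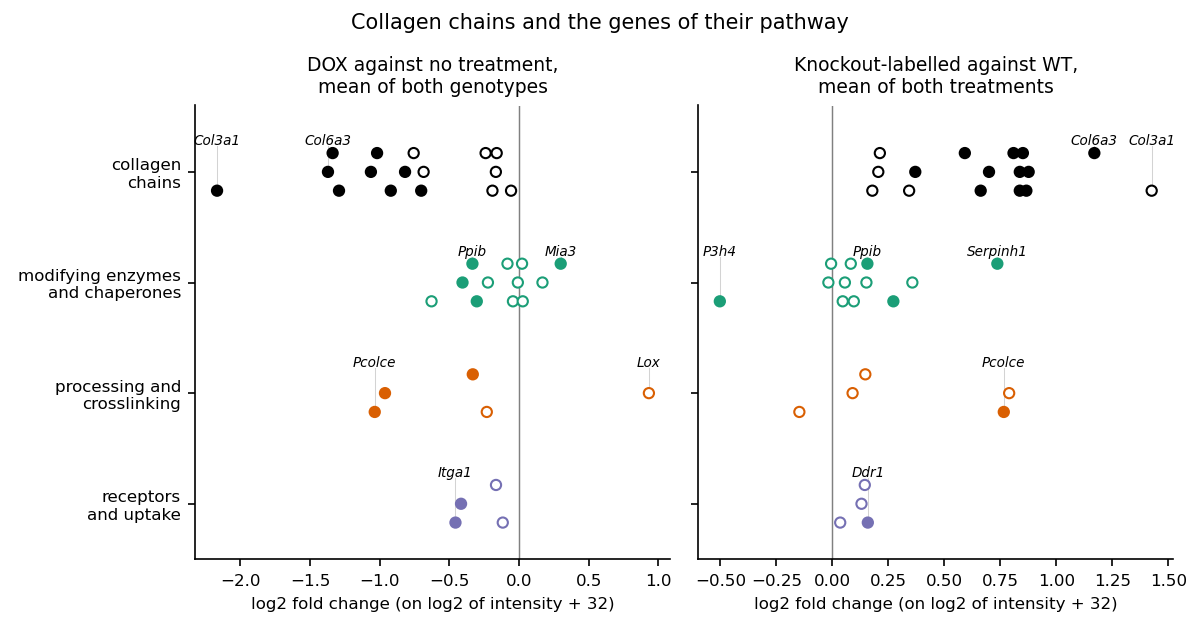
Averaged log2 fold changes (x axis) of the 16 brighter collagen chains and of the pathway genes with a mean of at least 100 (rows, height within a row only separates points), for DOX against no treatment on the left and knockout-labelled against WT on the right. Filled points passed an adjusted p under 0.05 and open points did not, and the chains reached -2.17 (Col3a1) on the left and 1.43 (Col3a1, not called) on the right, Pcolce lay at -1.04 and 0.77, Mia3 passed at 0.30 on the left and P3h4 at -0.50 on the right.

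The 26 dim chains had no call in any comparison. Their log2 fold changes with DOX ranged from -0.44 to 0.10 in knockout-labelled and from -0.30 to 0.11 in WT hearts, with medians of -0.005 and -0.02. The lowest value in knockout-labelled hearts was that of Col5a3, the third chain of type V, which read from 38.4 to 39.3 after DOX and from 48.5 to 82.9 without it. The cartilage chains Col2a1, Col9a1, Col9a2, Col9a3, Col10a1, Col11a1 and Col11a2 had means of 21.2 or less. That these chains were not called does not show that there was no difference. Of 11 genes with a further probe set of a mean of at least 50, the further and the main probe set had the same sign of DOX response in 10 in knockout-labelled and 11 in WT hearts, and the same sign of genotype difference in 10 after DOX and 11 without DOX.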

How the data were processed

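The authors deposited linear intensities of 12 Affymetrix Mouse 430 2.0 arrays, made with Affymetrix Expression Console from total heart RNA; its version and summary method are not given in the sources used here. Groups were taken from the deposited labels. Of 45037 probe sets, 34945 named 1 gene. Values were analysed as log2(intensity + 32) with limma 3.58.1 in R 4.3.3 (group means of all 12 arrays, contrasts, moderated variances), with Benjamini-Hochberg adjustment over all probe sets, and the script was tested on simulated data. Named were all called chains, a set list of chains whatever their values, the chains of smallest p, and called or smallest-p genes of the pathway lists; other names (Col27a1 and the dim type IV, type VI and cartilage chains) were added after their values were seen. Members and lists were chosen with earlier results of these data known. The number of arrays limits the precision. Alternatives changed the added constant, filter, probe set choice, variance model, scaling and arrays. The replicate numbers did not pair the arrays. No protein sequences were used, and gene order came from a RefSeq gene table without its coordinates.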

Additional observations from a re-analysis of the deposited data

Results flagged for a closer look

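Col4a2 was flagged because the DOX responses of the genotypes ran in opposite directions on every array. All 3 knockout-labelled DOX arrays lay below the knockout-labelled arrays without DOX, and all 3 WT DOX arrays lay above the WT arrays without DOX. The difference between the responses was -0.71 on the log2 scale (standard error 0.15, adjusted p = 0.337, limma), which did not pass the test over all probe sets. Without each array in turn its adjusted p ranged from 0.197 to 0.588.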

How the results depend on the processing

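Counts of called chains changed with the processing as follows, and the cause was not tested. The fit to 6 arrays and the methods' t-test were run on the single comparisons only. For DOX in knockout-labelled hearts (7 chains) the count was 13 with only probe sets of a mean of at least 100, 11 when the probe sets of each gene were averaged and 0 both with a fit to the 6 arrays compared and with the methods' t-test. For DOX in WT hearts (5) it was 3 with the 6 arrays and 0 with the methods' t-test. Between the genotypes after DOX (0) it was 1 with an added value of 16, 2 with an added value of 1, 1 each with trended and robust variance, array weights or averaged probe sets and 4 with the mean filter. Without DOX (4) it was 7 when any probe set of a gene counted, 8 with an added value of 1, 7 with trended and robust variance, 8 with array weights, 11 with the mean filter, 1 with the 6 arrays, 0 with the methods' t-test and 8 with averaged probe sets. Without each array in turn the counts ranged from 3 to 8 for DOX in knockout-labelled hearts, 0 to 6 for DOX in WT hearts, 0 to 2 between the genotypes after DOX, 0 to 6 between them without DOX, 8 to 12 for the averaged DOX response and 5 to 14 for the averaged genotype difference, and stayed at 0 for the interaction. Without knockout-labelled DOX replicate 1 the averaged genotype count was 14.

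The same-numbered arrays of different groups did not deviate together (3 of 18 pairs correlated over 0.1), so the numbers were not taken as pairs. With the replicate block the counts were 7 and 5 for DOX in knockout-labelled and WT hearts, 0 and 3 between the genotypes after and without DOX, 0 for the interaction, 10 for the averaged DOX response and 11 for the averaged genotype difference. Under the block Col15a1 and Col1a1 were no longer called between the genotypes without DOX, nor Col5a2 and Col8a1 in the averaged genotype difference. Among called values the sign turned only on further, dim probe sets, for Col14a1 (averaged genotype difference -0.0155) and for Col1a2 (averaged DOX response 0.0289, averaged genotype difference -0.0116). The averaged DOX calls of Col14a1, Col15a1, Col1a1, Col3a1, Col5a1, Col6a1, Col6a2 and Col6a3 held in all 22 alternatives run on the probe set that stands for the gene, each array left out included, and that of Col1a2 in 21. The number of arrays and the lack of detection calls limit what can be said of dim chains.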
